A study of Homo sapiens with 15 samples.

Results

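DNA methylation was examined at 10 genes that mark colon epithelium, in HCT116 cells, a human colorectal carcinoma line. The genes were CDX1, CDX2, LGR5, KRT20, VIL1, CDH17, MUC2, LGALS4, EPCAM and CDH1, chosen by name out of 20033 protein-coding genes on chromosomes 1 to 22, X and Y. All CpGs within 1 kb of any annotated transcript start of a gene formed its start window, and the CpGs of the gene outside that window formed its gene body. The 10 genes held 6806 of the 29401360 CpGs measured. Whole genome bisulfite sequencing was carried out on 15 libraries in 6 groups. Each HCT116 population carried an integrated, doxycycline (dox)-inducible shRNA under puromycin selection, directed against UHRF1 or DNMT1. UHRF1 was targeted in 3 clones, Cl.3, Cl.6 and Cl.9, each of which grew from a single cell. DNMT1 was targeted in R1 and R2, which were 2 uncloned bulk populations. Baseline cells were collected at day 14 without dox and received DMSO. Knockdown cells were collected at day 14 of dox at 10 ng/mL, and Recovery cells at day 28, after 14 days of dox and 14 days without it. The target of the shRNA, the kind of population (clone or bulk) and the count table cannot be told apart in this design. Among the clones, Cl.9 had its own count table, apart from Cl.3 and Cl.6, and more reads per CpG. The sources used here do not say whether R1 and R2 were transduced separately. If they were not, p-values for shDNMT1 measure a spread that is in part technical.

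DNA methylation at a CpG is copied after replication: UHRF1 recognises the half-methylated site and helps to bring in DNMT1, the enzyme that methylates the new strand. CpG-dense promoters are mostly unmethylated, while gene bodies and CpG-poor promoters are mostly methylated. CDX1 and CDX2 are the homeobox transcription factors that set intestinal fate. LGR5 is the R-spondin receptor that marks crypt stem cells, KRT20 and VIL1 are structural proteins of differentiated enterocytes, and MUC2 is the mucin secreted by goblet cells. CDH17, EPCAM and CDH1 (E-cadherin) hold epithelial cells together, and LGALS4 is a galectin of the gut lining. These files measure neither transcripts nor protein, so neither the knockdown itself nor the cell type could be checked here.

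The methylation level (mC) was the share of reads with C among all reads at the CpGs of a region. Between 315732617 and 590592161 reads covered CpGs per library, with 10.7 to 20.1 reads per CpG on average, and Cl.3 was the shallowest population. Genome-wide mC was 71.7% to 76.5% at Baseline, 39.4% to 62.5% at Knockdown and 53.1% to 72.9% at Recovery. A start window of the 10 genes rested on 248 to 7917 reads per library and a gene body on 847 to 27708 reads. The widest 95% Wilson interval was 8.36 points for a start window and 5.30 points for a gene body, and these intervals cover counting error only.

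At Baseline, the starts of the 10 genes fell into 2 kinds, and the gene bodies into 1. Start windows of CDX1, KRT20, VIL1, CDH17, MUC2 and LGALS4 had mC of 82.8% to 97.5% in all 5 populations. CDX2, LGR5 and EPCAM had start windows of 15.3% to 37.9%. These values also mixed several starts, and the canonical window alone had 7.61% to 17.4% at CDX2, 19.3% to 28.7% at LGR5 and 5.56% to 18.6% at EPCAM, while downstream alternative starts of LGR5 and EPCAM had 88.0% to 97.1%. CDH1 lay between the low and the high windows at 68.1% to 79.9%, from 7 separate windows. The window of its canonical start stood at 15.0% to 23.7%, and the 6 windows of its downstream alternative starts at 93.6% to 98.7%. Within 1 kb of the canonical start the ratio of observed to expected CpGs was 0.65 to 0.88 for CDX2, LGR5, EPCAM and CDH1, and 0.13 to 0.33 for KRT20, VIL1, CDH17, MUC2 and LGALS4. CDX1 was the exception, with a ratio of 0.72 and a Baseline mC of 95.8% to 97.2%. The median Baseline mC over the 10 start windows was 87.9%, against 51.1% over all 19382 start windows tested, and 6 of 10 (60.0%) reached 80% against 23% of all.

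**Figure D1:**
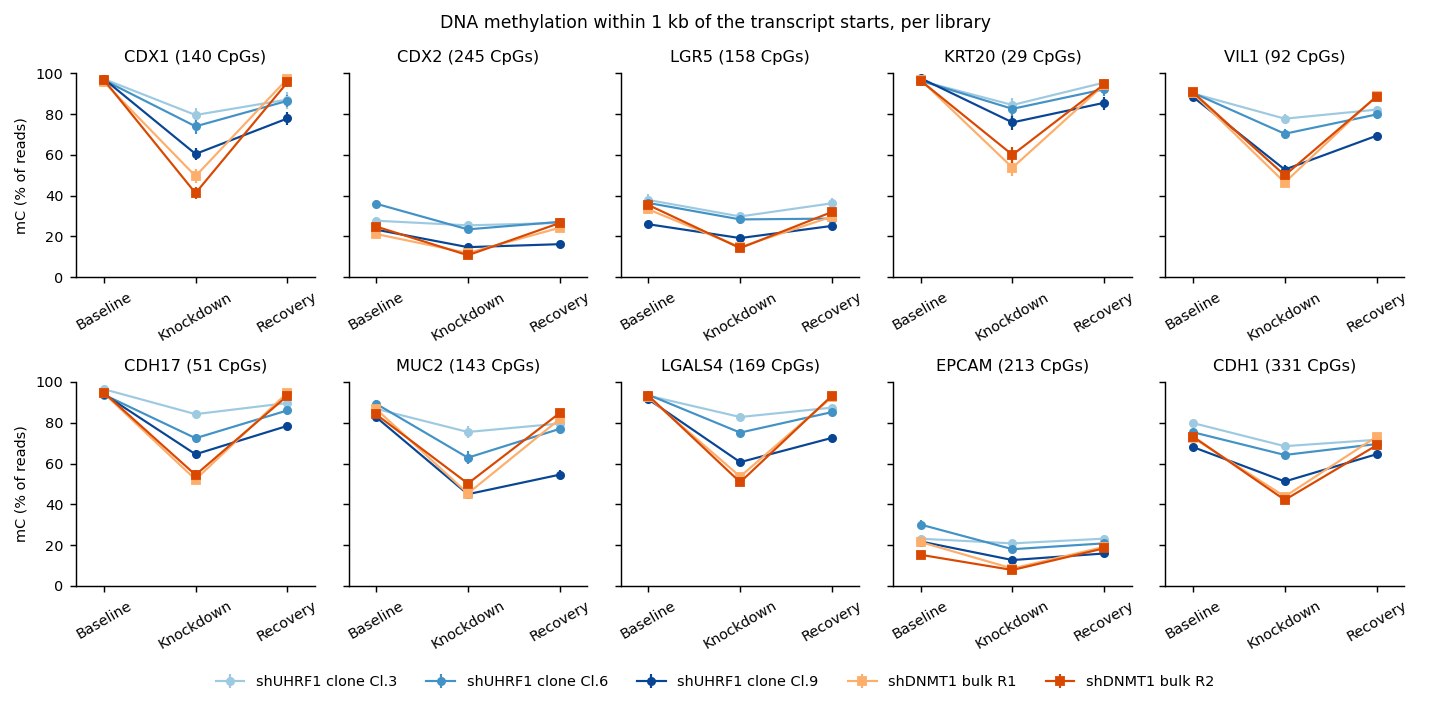
mC in percent of reads (vertical axis) within 1 kb of the transcript starts of each gene, for every library at Baseline, Knockdown and Recovery. Circles are the 3 shUHRF1 clones, squares the 2 shDNMT1 bulk populations, and bars the 95% Wilson intervals; the squares end within 5.03 points of their Baseline level at Recovery, with those of LGR5 3.54 and 3.41 points below it, whereas the circles of CDX1, VIL1, CDH17, MUC2 and LGALS4 stay below theirs.

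For 7 of the genes, the CpG nearest the canonical start with at least 5 reads in every library shows the 2 kinds of start in sequence. They are printed in hg38, 5′ to 3′ on the strand of the gene, with the measured CpG in capitals. The first 2 had no methylated read in any of the 15 libraries, with 5 to 39 reads per site and library. Over all libraries this was 0 of 388 reads at CDX2 and 0 of 178 at CDH1, which allows levels of up to 0.773% and 1.69%.
CDX2, chr13:27969304-27969333, minus strand: gtcttgtaaacactCGttaatcacggaagg
CDH1, chr16:68737283-68737312, plus strand: ccccctctcagtggCGtcggaactgcaaag
LGR5, chr12:71439802-71439831, plus strand: cacaccgctcaggcCGcgagcagcagcaag
VIL1, chr2:218419086-218419115, plus strand: gtggggacaaaggtCGctcttctgcagcca
KRT20, chr17:40885158-40885187, minus strand: caatggatttcagtCGcagaagcttccaca
LGALS4, chr19:38812934-38812963, minus strand: caccgcctgccatcCGccaccatctcccac
CDX1, chr5:150166351-150166380, plus strand: ctgtttgaagtctgCGttgcccctcacctc

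The LGR5 site was at 0% in 12 of 15 libraries and at 8.33% to 18.2% in R1 Recovery, R2 Knockdown and R2 Recovery. With 5 to 20 reads per library at this site, these levels rest on very few methylated reads. The CDX2 and VIL1 sites lie 3 bp and 23 bp upstream of the canonical start, the LGALS4 site 3 bp upstream, and the CDH1, LGR5 and KRT20 sites 5, 18 and 70 bp downstream in an exon. At Baseline the VIL1 site was at 84.0% to 100%, the KRT20 site at 86.7% to 100% and the LGALS4 site at 94.4% to 100%. For CDX1 no nearer CpG than 413 bp upstream had 5 reads in every library, and that site was at 80% to 100% at Baseline. Only 14 of the 140 CpGs in the CDX1 start window met this minimum, none of them within 400 bp of the start, so the level at the centre of this CpG-dense start rests on few reads per site.

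Single CpGs along the starts showed where the methylation of the low windows lay. At CDX2, EPCAM and CDH1, the CpGs from 400 bp upstream of the canonical start to 1000 bp downstream had mC of 0.55% to 6.76% at Baseline, over 107 to 134 CpGs per gene. The 13 to 20 CpGs between 1000 and 400 bp upstream had 82.9% to 95%. These flanks lost methylation at Knockdown, from 91.4%, 91.7% and 91.0% to 69.2%, 64.6% and 51.5% in Cl.3, Cl.6 and Cl.9 at CDX2, and from 87.9% and 85.2% to 38.9% and 28.8% in R1 and R2. The EPCAM flank fell by 9.35, 15.3 and 21.5 points in the clones and by 56.7 and 55.3 points in the bulk populations. Around the start itself, changes at the 3 genes ranged from a gain of 0.71 points to a loss of 4.38 points. The limit of 400 bp was placed after the values were seen, and no test was made on the segments. LGR5 had no such step: of its 77 CpGs with enough reads, 37 were below 20% and 5 above 80% in the mean of the clones at Baseline, with a median of 20.3%.

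**Figure D2:**
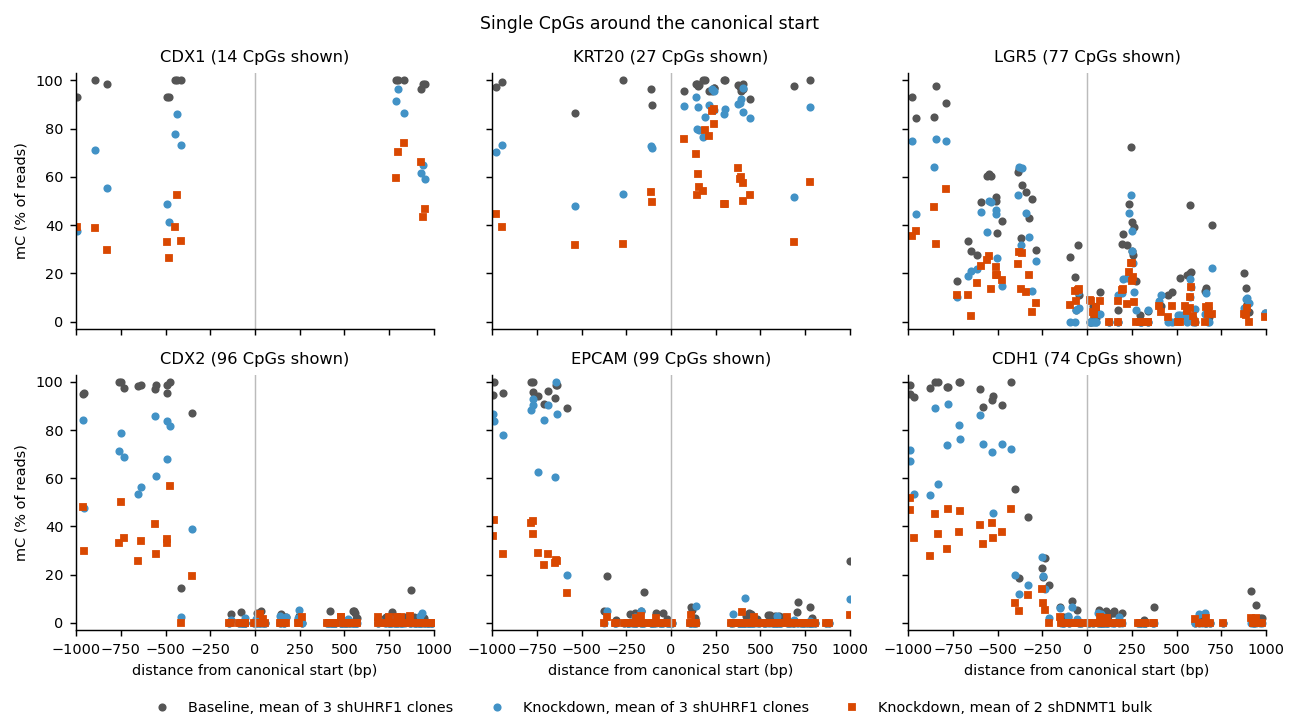
mC in percent of reads (vertical axis) of single CpGs read 5 times or more in each library, against the distance in bp from the canonical start (gray line), for 6 genes. Dark gray circles are Baseline and blue circles Knockdown (means of the 3 shUHRF1 clones), and orange squares are Knockdown (mean of the 2 shDNMT1 populations); CDX2, EPCAM and CDH1 have an unmethylated start beside a methylated upstream flank, and CDX1 shows no CpG with enough reads around its start.

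CDX1 (chr5:150166778-150184558, 1 annotated transcript) had the most methylated start window of the 10 genes by mean, above 98.5% of all genes tested. Its mC was 97.2%, 96.7% and 97.2% in Cl.3, Cl.6 and Cl.9 at Baseline, then 79.5%, 74.0% and 60.4% at Knockdown and 87.1%, 86.4% and 77.8% at Recovery. In R1 and R2 it was 95.8% and 96.8%, then 49.6% and 41.2%, then 97.2% and 95.5%. Knockdown and Recovery did not overlap with Baseline in the clones, although Cl.3 at Knockdown was above Cl.9 at Recovery, and Baseline and Recovery overlapped in the bulk populations. Knockdown loss was 25.7 ± 9.90 points (SD, n = 3) with shUHRF1 and 50.9 ± 6.64 points (SD, n = 2) with shDNMT1. Of the 4457 genes whose start windows averaged at least 80% at Baseline, 23.8% lost more than CDX1 in the clones and 4.60% lost more in the bulk populations.

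CDX2 (chr13:27960918-27969315, minus strand) paired a low start with the most methylated gene body of the 10. Its start window had 27.7%, 36.0% and 23.3% at Baseline in the clones, 25.4%, 23.5% and 14.7% at Knockdown, and 26.6%, 27.2% and 16.2% at Recovery. R1 and R2 had 21.2% and 24.9%, then 11.9% and 10.8%, then 24.2% and 26.6%. Baseline and Knockdown overlapped between clones but fell within each clone, by 2.27 points in Cl.3, 12.6 points in Cl.6 and 8.59 points in Cl.9. The gene body of 132 CpGs had 96.0% to 97.8% at Baseline, above that of 93.5% of genes, and 54.2% to 75.2% at Knockdown in the clones against 47.4% and 44.3% in R1 and R2.

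LGR5 (chr12:71439798-71586310) had the smallest loss at its start in the mean of the clones on the log2 odds scale. In points its mean was close to those of CDX2 and EPCAM, which lost less than LGR5 in Cl.3 and, with the canonical start alone, also in the mean. Cl.3, Cl.6 and Cl.9 had start window mC of 37.9%, 36.4% and 26.0% at Baseline, 29.8%, 28.3% and 19.2% at Knockdown, and 36.2%, 28.7% and 25.2% at Recovery. The bulk populations went from 33.2% and 35.4% to 14.8% and 14.3%, and back to 29.7% and 32.0%. Each clone lost a similar amount, 7.64 ± 0.745 points (SD, n = 3), although Cl.9 lost most of the 3 at CDH1 and at each of the 6 highly methylated starts. Recovery split the clones, since Cl.3 and Cl.9 regained 79.8% and 88.0% of the loss and Cl.6 regained 4.98%. Its start window overlaps the opposite-strand gene TSPAN8, so CpGs there are shared with that gene. Start windows of EPCAM (with EPCAM-DT) and CDH1 (with ENSG00000260798 and FTLP14) also overlap other annotated genes.

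KRT20 (chr17:40875889-40885242, minus strand) lost the least of the 6 highly methylated starts in the mean of the clones, and in Cl.6 and Cl.9. In Cl.3, LGALS4 and MUC2 lost less, 10.5 and 11.3 points against 11.8 points at KRT20. The clones had 96.2%, 96.3% and 97.5% at Baseline, 84.4%, 82.5% and 75.9% at Knockdown, and 95.4%, 92.2% and 85.5% at Recovery. R1 and R2 fell from 96.7% and 96.3% to 53.7% and 60.0% and returned to 94.4% and 94.6%. Every clone stood above both bulk populations at Knockdown. The loss was 15.8 ± 5.22 points (SD, n = 3) in the clones, and 89.4% of the 4457 highly methylated starts lost more; in the bulk populations the loss was 39.7 ± 4.72 points (SD, n = 2), and 58.2% lost more. This window holds only 29 CpGs.

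VIL1 (chr2:218419121-218453295), which bundles actin in microvilli, had start window mC of 90.1%, 90.4% and 88.4% at Baseline in the clones, 77.7%, 70.3% and 52.8% at Knockdown, and 82.2%, 79.8% and 69.3% at Recovery. The bulk populations had 90.2% and 90.6%, then 46.4% and 49.9%, then 88.9% and 88.5%. Cl.9 was close above the bulk populations at Knockdown but regained 46.5% of its loss at Recovery, against 94.7% in R2. All 3 VIL1 start windows were methylated, at 85.5% to 91.8% in the mean of the clones at Baseline.

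MUC2 (chr11:1074875-1110511) had the largest deficit at Recovery in the mean of the clones in points, of which Cl.9 held the largest part. Its deficit was 7.21, 12.3 and 28.2 points in Cl.3, Cl.6 and Cl.9, and in Cl.3 those of CDX1, CDH1 and VIL1 were larger (10.1, 8.19 and 7.92 points). Cl.3, Cl.6 and Cl.9 had start window mC of 86.8%, 89.3% and 82.8% at Baseline, 75.5%, 62.9% and 45% at Knockdown, and 79.6%, 77.0% and 54.6% at Recovery. R1 and R2 went from 86.8% and 84.1% to 45.3% and 50.2%, and then to 81.8% and 84.7%. Cl.9 at Knockdown was as low as the bulk populations, and it regained 25.3% of its loss. Partially methylated domains (PMDs), long stretches of intermediate methylation called by the study, covered 30.9% to 72.5% of MUC2 at Baseline, the largest share of the 10 genes in every population. Its 1211 gene body CpGs had the lowest Baseline mC of the 10 bodies, 78.5% to 84.6%.

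LGALS4 (chr19:38801671-38812945, minus strand) had 93.3%, 93.7% and 91.5% at Baseline in the clones, 82.8%, 75.2% and 60.7% at Knockdown, and 87.4%, 85.2% and 72.6% at Recovery. R1 and R2 fell from 92.5% and 93.3% to 53.6% and 50.9% and came back to 92.5% and 93.3%. Every clone was above both bulk populations at Knockdown and below both at Recovery. Within the gene, the window around the canonical start lost most in the mean of the clones, from 95.6% to 69.5%. The alternative start windows 3997, 6438 and 9294 bp downstream went from 92.7% to 81.7%, from 96.1% to 77.0% and from 88.1% to 66.5%.

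EPCAM (chr2:47345158-47387601), whose longest annotated transcripts begin upstream of its canonical start, had a low window with little to lose. The clones had 23.2%, 30.1% and 21.8% at Baseline, 20.9%, 18.0% and 12.7% at Knockdown, and 23.2%, 20.9% and 15.9% at Recovery. The bulk populations had 21.5% and 15.3%, then 8.55% and 7.82%, then 19.2% and 18.5%. CDH1 (chr16:68737292-68835537) had 79.9%, 75.4% and 68.1% at Baseline in the clones, 68.5%, 64.2% and 51.2% at Knockdown, and 71.7%, 69.6% and 64.6% at Recovery. R1 and R2 had 72.7% and 73.2%, then 43.8% and 42.2%, then 73.2% and 68.9%. Its loss of 13.1 ± 3.25 points (SD, n = 3) in the clones came mostly from the 6 internal start windows, since the canonical window went from 20.6% to 14.0% in the mean of the clones. CDX2 and EPCAM windows of Cl.6 were the highest of the 5 populations at Baseline.

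CDH17 (chr8:94127162-94217303, minus strand), the liver-intestine cadherin, had 96.5%, 93.8% and 94.1% at Baseline in the clones, 84.2%, 72.4% and 64.6% at Knockdown, and 89.7%, 86.1% and 78.5% at Recovery. R1 and R2 had 94.5% and 94.8%, then 52.2% and 54.4%, then 94.7% and 93.2%. Its canonical start window holds 11 CpGs, the fewest of the 10. At Knockdown Cl.3 was highest, then Cl.6, then Cl.9, with the bulk populations lowest, at 9 of the 10 starts. MUC2 was the exception. Over all 19382 start windows, the median Knockdown mC had the same order: 43.0% for Cl.3, 40.6% for Cl.6, 29.2% for Cl.9. It was 26.6% (R1) and 25.2% (R2) for the bulk populations. This order is therefore not particular to the 10 genes.

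At Knockdown, mC of the start window was lower than at Baseline for every one of the 10 genes in each population. This did not hold for the canonical window alone, which rose at EPCAM in Cl.3, from 10.4% to 13.1%. The canonical window of CDX2 fell by 0.586 points in Cl.3. By edgeR's quasi-likelihood test on methylated and unmethylated reads, with the population as a block and Benjamini-Hochberg adjustment over all genes, 10 of 10 start windows fell with shUHRF1 and 10 of 10 with shDNMT1. Such falls were near universal, with 97% and 98.8% of all 19382 start windows called lower, so these counts say nothing particular about the 10 genes. CDX1 had a log2 odds ratio of -3.83 ± 0.33 (SE; adjusted p = 6.69e-12) with shUHRF1 and -5.04 ± 0.37 (SE; adjusted p = 3.67e-14) with shDNMT1. At the other end, LGR5 had -0.54 ± 0.17 (SE; adjusted p = 0.0036) and CDX2 -1.23 ± 0.20 (SE; adjusted p = 4.88e-07), respectively. The fit shared its spread between both shRNAs and drew on all genes for it. Losses in points varied more between clones than between R1 and R2 at most of the 10 starts. The shared spread may therefore be too small for the clones, and their p-values too small. The few populations of a contrast alone would not give p-values of this size. The median over the 10 genes was -2.05 with shUHRF1 and -3.01 with shDNMT1, beside -1.04 and -1.67 over all start windows. Among windows that started at 80% or more, medians were close: the 6 members lost 12.0, 20.7 and 33.2 points in Cl.3, Cl.6 and Cl.9, and R1 and R2 lost 42.7 and 40.5 points, against 13.2, 20.2, 33.0, 40.3 and 41.2 points over the 4457 genes. With the canonical start alone, CDX2, LGR5 and EPCAM were no longer called with shUHRF1 (adjusted p = 0.051, 0.053 and 0.084 by edgeR). Without the population block 8 of 10 were called with shUHRF1 (81.4% of all genes), and CDX2 and LGR5 did not pass (adjusted p = 0.062 and 0.11 by edgeR).

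Methylation rose again from Knockdown to Recovery, and with shDNMT1 it came closer to Baseline at most starts. LGR5 was an exception, since R1 and R2 regained 80.8% and 83.9% of the loss and ended 3.54 and 3.41 points below Baseline. KRT20 ended 2.29 and 1.75 points lower and VIL1 1.23 and 2.14 points lower in R1 and R2, and MUC2 ended 5.03 points lower in R1. From Knockdown to Recovery, 10 of 10 start windows rose with shDNMT1 (98.6% of all genes) and 7 of 10 with shUHRF1 (50.1% of all genes); CDX2, LGR5 and EPCAM did not pass, with log2 odds ratios of 0.18, 0.32 and 0.28. Without Cl.6, CDX1, VIL1 and MUC2 did not pass this comparison either (adjusted p = 0.051, 0.054 and 0.24 by edgeR), nor did CDH1 without Cl.9 (0.14) or MUC2 without R1 or R2 (0.059 for both). Compared with Baseline, 9 of 10 start windows were still lower with shUHRF1, against 75% of all genes, and LGR5 did not pass (-0.22 ± 0.17, SE; adjusted p = 0.23 by edgeR). KRT20 passed with a log2 odds ratio of -1.58, which was -0.78 and did not pass without Cl.9 (adjusted p = 0.11 by edgeR). CDX2 and EPCAM passed with -0.45 and -0.42, but did not pass without Cl.6 (-0.37 and -0.28; adjusted p = 0.11 and 0.23 by edgeR) or without Cl.9 (-0.34 and -0.35; adjusted p = 0.13 and 0.13). With shDNMT1, 0 of 10 were called by edgeR, as were 0% of all 19382 start windows. At an unadjusted p under 0.05, edgeR passed 0 of the 10 genes and 500 of all, and limma passed 0 of the 10 and 564. Without the population block, edgeR called 0 of 10 start windows for the rise with shUHRF1 (0% of all genes) and 6 of 10 for the deficit against Baseline (29.9%), with CDX2, EPCAM and CDH1 no longer past the threshold. The deficit was largest at CDX1 on the log2 odds scale (-2.75 ± 0.36, SE; adjusted p = 1.52e-07 by edgeR) and at MUC2 in points, 15.9 ± 11 (SD, n = 3).

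The falls differed between the shRNAs at most of the 10 starts. The interaction term of the same edgeR fit found a smaller fall with shUHRF1 than with shDNMT1 at 7 of 10 start windows, against 48.2% of all genes, and a larger Recovery deficit at 6 of 10, against 33.9%. The difference at Knockdown was widest at KRT20, 1.5 ± 0.59 on the log2 odds scale (SE; adjusted p = 0.036), and KRT20 did not pass without Cl.3, Cl.6, R1 or R2 (adjusted p = 0.080, 0.14, 0.20 and 0.14 by edgeR). CDX1, MUC2 and EPCAM did not pass (adjusted p = 0.064, 0.14 and 0.052 by edgeR). These counts depended on the bulk populations: without R1, 3 of 10 and 0 of 10 passed (12.2% and 1.41% of all genes), and without R2, 0 of 10 passed in either comparison (3.22% and 1.18% of all genes). Without the population block, edgeR also called 0 of 10 in either comparison (0% and 0.00516% of all genes). Because population kind goes with the shRNA, a difference between targets and between clones and bulk cells cannot be told apart. At Baseline the EPCAM start window was higher in every clone, 25.0% against 18.4% in the mean (exact two-sided permutation test, p = 0.2, the smallest that 3 against 2 populations allow). At the other members clones and bulk populations overlapped. The share over all start windows is not given here, so this says nothing particular about EPCAM.

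**Figure D3:**
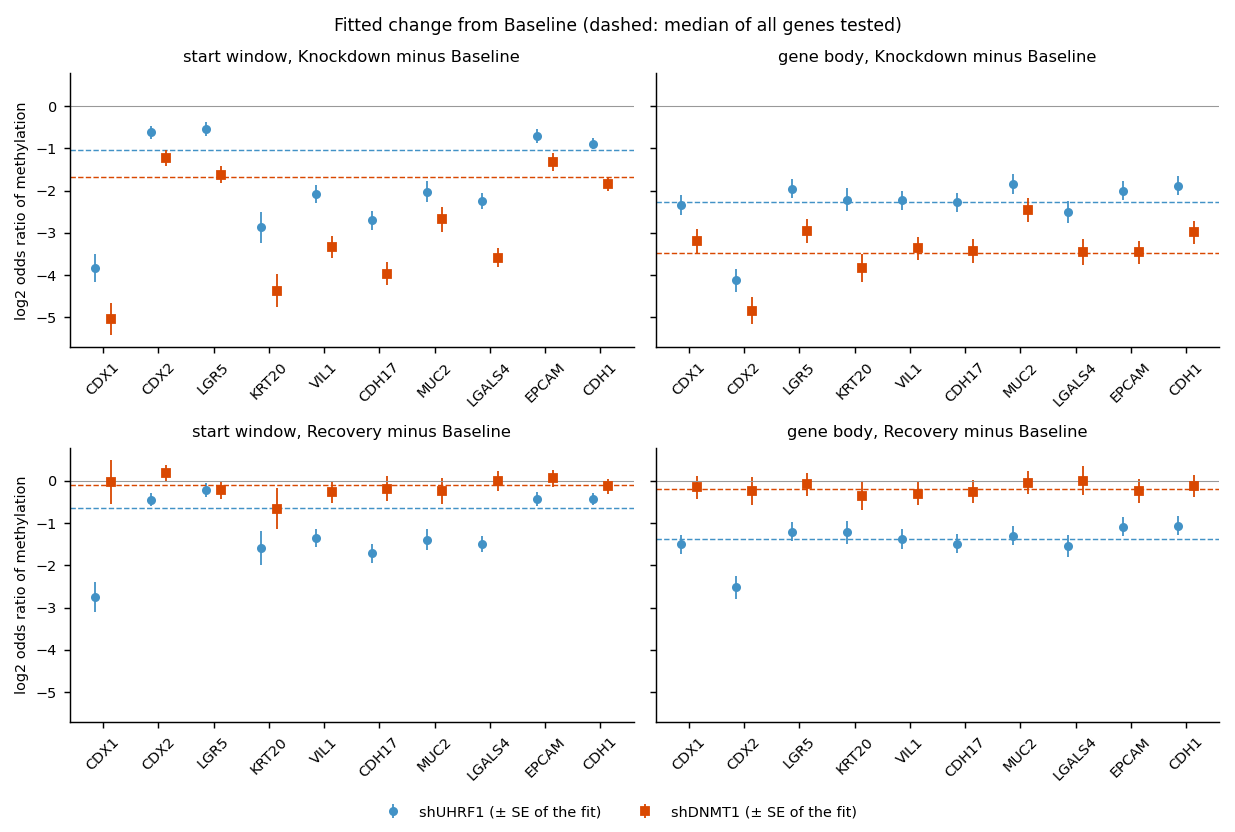
Log2 odds ratio of methylation against Baseline (vertical axis) for each gene, at Knockdown (top) and Recovery (bottom), in start windows (left) and gene bodies (right). Points are edgeR estimates and bars their SE for shUHRF1 (circles) and shDNMT1 (squares), and dashed lines are the medians over all genes tested; start windows spread widely around those medians, from -0.54 to -3.83 with shUHRF1 at Knockdown, and gene bodies lie closer to them, with CDX2 farthest below at Knockdown with both shRNAs and at Recovery with shUHRF1.

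In gene bodies the 10 genes behaved more alike than at their starts. Baseline mC was 78.5% to 97.8% in every gene and population. At Knockdown it was 68.8% to 86.9% in Cl.3, 61.4% to 79.6% in Cl.6, 40.1% to 70.6% in Cl.9, 41.4% to 59.6% in R1 and 41.3% to 54.6% in R2. At Recovery it was 76.5% to 93.9%, 70.7% to 91.6% and 47.7% to 81.1% in the clones, and 82.0% to 95.4% in R1 and 82.6% to 95.3% in R2. The clones therefore kept a deficit in every gene body, and the bulk populations lay between 1.99 points below and 0.23 points above Baseline.

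KRT20 had the smallest body loss in the mean of the clones, 15.5 ± 6.51 points (SD, n = 3), and CDX1 and CDX2 the largest, 29.3 ± 10.9 and 29.2 ± 11.9 points (SD, n = 3). In single clones, EPCAM lost slightly less than KRT20 in Cl.3, and CDH17 and MUC2 lost more than CDX2 in Cl.6. With shDNMT1 the CDX2 body also lost most, 50.2 ± 2.05 points (SD, n = 2), and MUC2 least in the mean, 36.1 ± 0.097 points (SD, n = 2), although KRT20 lost slightly less in R1. EPCAM bodies differed most between the shRNAs in points, with 91.7%, 93.1% and 90.8% at Baseline and 82.4%, 76.1% and 60.9% at Knockdown in the clones, against 90.5% and 91.2% and then 47.6% and 47.0% in R1 and R2. CDX1 and CDX2 lost more than most bodies, since 3.61% and 3.65% of the 15053 gene bodies with Baseline mC of at least 80% lost more in the clones. KRT20 lost less than 96.6% of them.

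By the same test, 10 of 10 gene bodies fell at Knockdown with shUHRF1 (99.8% of all 18496 bodies tested) and 10 of 10 with shDNMT1 (99.8%). All 10 were still lower at Recovery with shUHRF1 (98.5%) and 0 of 10 with shDNMT1 (0%; unadjusted p under 0.05 in 0 of the 10 and 318 of all by edgeR, 0 and 741 by limma, which called 79 bodies, none of them among the 10). From Knockdown to Recovery, 10 of 10 rose with shUHRF1 (85.7%) and 10 of 10 with shDNMT1 (99.8%). The Knockdown fall was smaller with shUHRF1 at 8 of 10 bodies (81.6%), all but CDX2 and MUC2, and the Recovery deficit larger at 9 of 10 (88.9%), all but KRT20. Without R1 or without R2, 0 of 10 bodies passed for the Knockdown difference (0.016% and 0.081% of all bodies) and only CDX2 for the Recovery difference (1.35% and 1.64%). Without the population block, edgeR called 0 of 10 bodies, and 0% of all, for the rise with shUHRF1 and for both differences. Median log2 odds ratios over the 10 bodies were -2.22 and -3.40 at Knockdown with shUHRF1 and shDNMT1, beside -2.28 and -3.47 over all bodies. In gene bodies edgeR set 1 common spread for all genes, and the libraries of a clone deviate together across genes, so p-values of single bodies are not printed. With the spread of each gene alone, the MUC2 body was no longer called for the rise with shUHRF1. The LGR5 and MUC2 bodies did not pass for this rise without Cl.6, nor did MUC2 without R1 or without R2. The shDNMT1 libraries fitted without the clones gave 3 of 10 bodies (EPCAM, VIL1 and CDH17) called lower at Recovery, in a fit that called 39.3% of all bodies.

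**Figure D4:**
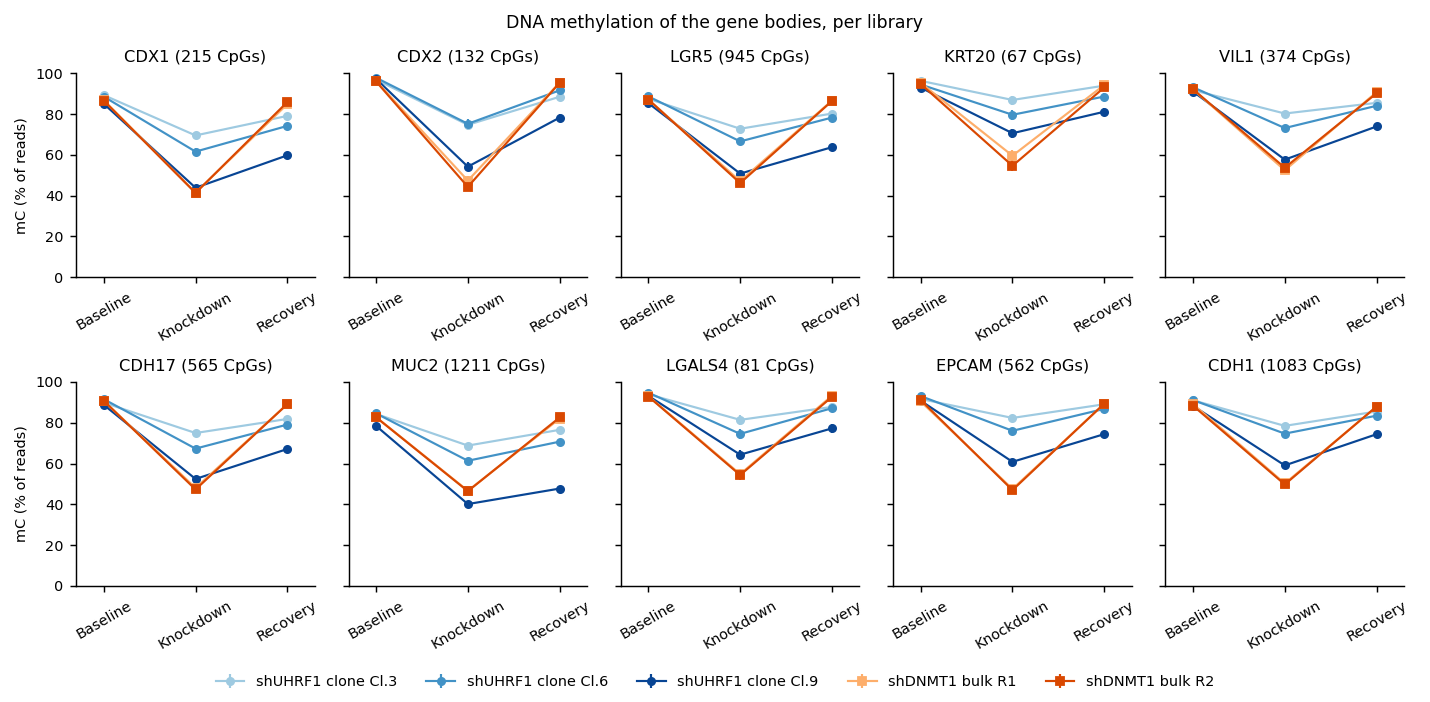
mC in percent of reads (vertical axis) of the gene body of each gene in every library, at Baseline, Knockdown and Recovery. Circles are the 3 shUHRF1 clones, squares the 2 shDNMT1 populations, and bars the 95% Wilson intervals; all bodies start at 78.5% or more, the bulk populations end within 1.99 points of their own Baseline and Cl.9 stays lowest at Recovery.

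Isolated CpGs of these genes lost more methylation than crowded ones. Low-density CpGs, whose nearest CpG lies 20 bp or more away, made up 418 of 1571 start window CpGs and 2677 of 5235 gene body CpGs. In gene bodies, where both classes started at 85.7% to 92.9%, low-density CpGs lost 17.0, 24.8 and 39.0 points in the 3 clones in turn and high-density CpGs 8.79, 14.5 and 25.7 points. R1 and R2 lost 44 and 44.3 points at low density and 35.7 and 36.6 points at high density. The gap between the classes was 10.6 ± 2.51 points (SD, n = 3) in the clones and 8.03 ± 0.49 points (SD, n = 2) in the bulk populations, and every population showed it. In early-replicating chromatin, the study reported deeper loss at low-density CpGs with both knockdowns, and a stronger such preference with UHRF1 knockdown. In late-replicating chromatin, where low-density CpGs began lower, it reported that the preference moved to high-density CpGs with either knockdown. Within single genes, low-density CpGs lost more in all 3 clones at 10 of 10 bodies and 9 of 10 start windows, and in both bulk populations at 9 of 10 of each. The share over all genes is not given here, so these counts say nothing particular about the 10 genes. MUC2 was the gene that fell short, in its start window with both shRNAs and in its body with shDNMT1 only. With 3 populations an exact sign-flip test cannot go below p = 0.25, so no p is given.

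In start windows the gap was 15.0 ± 6.59 points in the clones (SD, n = 3) and larger, 21.0 ± 0.0021 points, in the bulk populations (SD, n = 2). Both gaps include a difference in Baseline level, since high-density CpGs there held 48.2% to 59.3% at Baseline and low-density CpGs 80.6% to 85.3%. Among body CpGs that had at least 85% mC at Baseline and 5 reads at each stage, a fall of 30 points or more was seen at Knockdown in 20.3%, 35.9% and 67.9% of low-density CpGs in Cl.3, Cl.6 and Cl.9 and in 7.65%, 14.3% and 38.5% of high-density CpGs. For R1 and R2 these values were 86.7% and 88.3% against 67.4% and 69.6%. Of the low-density CpGs that fell so far, 28.6%, 29.6% and 47.0% were still 30 points or more below Baseline at Recovery in the clones, and 0.48% and 1.03% in R1 and R2. Of the high-density CpGs, 24.3%, 16.4% and 44.2% were so in the clones and 1.59% and 0.88% in R1 and R2. In start windows high-density CpGs had the larger share in Cl.3, Cl.6, R1 and R2, with 31.0%, 31.5%, 0.44% and 0.45% at low and 38.7%, 35.8%, 0.67% and 0.97% at high density, and Cl.9 had 47.9% and 47.2%. In Cl.3, Cl.6, R1 and R2 these were shares of 58, 92, 227 and 223 low-density CpGs and of 31, 67, 298 and 309 high-density CpGs. The shares of R1 and R2 thus rest on very few CpGs, and no test was made on them. These shares describe CpGs chosen for their high Baseline values. Exons of the bodies lost 13.7, 18.3, 33.7, 38.3 and 38.3 points in Cl.3, Cl.6, Cl.9, R1 and R2, and introns lost 13.8, 21.1, 33.7, 40.9 and 41.4 points.

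**Figure D5:**
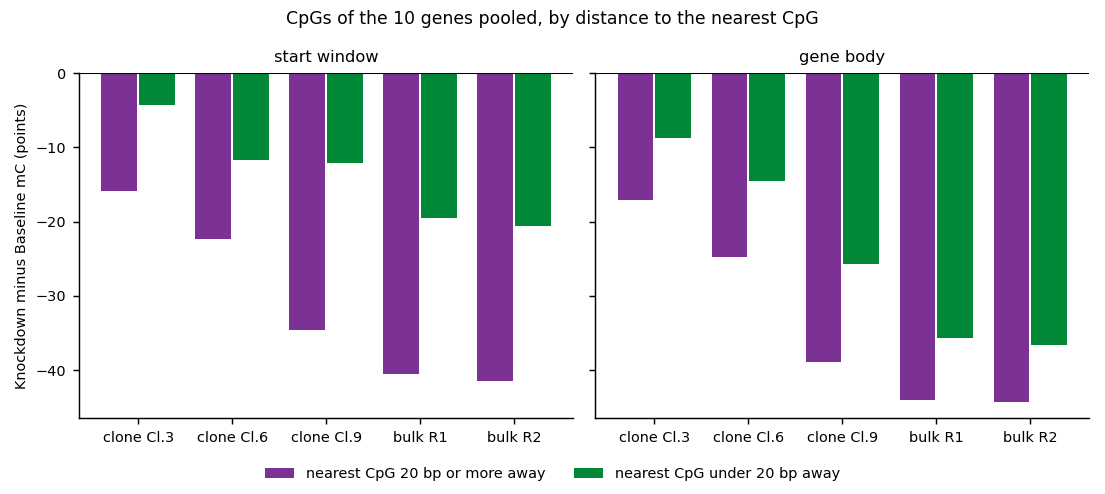
Change in mC from Baseline to Knockdown in percentage points (vertical axis) at the CpGs of the 10 genes pooled, in start windows (left) and gene bodies (right), for each population. Purple bars are CpGs with the nearest CpG 20 bp or more away and green bars the others, 1 value each without error bars; the low-density bar is longer in every population and region.

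The flanking bases of isolated CpGs also went with the size of the loss. Over both regions, 550 CpGs with no other CpG within 35 bp had A or T on both sides, and 1352 had C or G on at least 1 side. The first kind lost 22.7, 30.5 and 47.4 points in Cl.3, Cl.6 and Cl.9, and the second 15.7, 22.3 and 36.0 points. The bulk populations lost 45.5 and 46.1 points at the first kind and 43.3 and 43.4 points at the second, so the kinds differed less there than in any clone. The first kind also began lower, at 79.6% to 82.9% against 87.6% to 90.9%.

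The extremes among single CpGs are shown with their surrounding bases. Of the CpGs read 10 times or more in each library and holding at least 80% mC at Baseline in all 5 populations, the following were chosen by the size of their Knockdown change in the clones, at most 1 per gene at each end, and are described without a test. There were 1892 such CpGs. The first 3 did not fall in the mean of the clones, and the last 2 had the largest falls after a site in an intron of CDH17, which fell by 77.5 ± 13.4 points (SD, n = 3).
LGR5, chr12:71524393-71524422, plus strand, exon: ttgaaacccacagaCGtcttgcgggaaacg
CDH1, chr16:68829036-68829065, plus strand, intron: tcgtggaatctcagCGgcacacaacatgcg
VIL1, chr2:218430980-218431009, plus strand, exon: aacgaagacttttaCGctggctctgggctt
CDH1, chr16:68749888-68749917, plus strand, intron: ctttctaaaggaaaCGaattcccttcttcc
CDX2, chr13:27963743-27963772, minus strand, intron: ggtgaggaaaattaCGttttagtttagcct

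The LGR5 site read 85.7%, 86.7% and 100% at Baseline and 100%, 89.5% and 100% at Knockdown in the clones, and 100% in both bulk populations and then 76.2% and 83.3%. The first CDH1 site was at 100% in all 3 clones at Knockdown and at 78.1% and 70.0% in R1 and R2. The nearest CpG to these 3 sites lay 7, 13 and 12 bp away, and the 30 bases shown hold 1 or 2 further CpGs. The LGR5 site has A or T on both sides, and the other 2 have C or G on at least 1 side. The second CDH1 site fell from 95.5%, 100% and 95.3% to 28.6%, 36.8% and 7.89% in the clones, and the CDX2 site from 85%, 92.3% and 100% to 20.8%, 27.8% and 14.3%. Both have A or T on each side, as the LGR5 site does, and no other CpG in the bases shown. The nearest CpG lay 19 bp from this CDH1 site, just inside the high-density class, and 139 bp from the CDX2 site. Recovery left the second CDH1 site at 52.0%, 46.2% and 25.0% in the clones, and the CDX2 site at 65.0%, 50% and 55.2%, against 74.1% and 88.9%, and 100% and 100%, in R1 and R2.

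The domain lists of the study described the same genes by class. A highly methylated domain (HMD) held the canonical start of 6 of the 10 genes in all 5 populations at Baseline, and an unmethylated region (UMR) held that of CDX2, LGR5, EPCAM and CDH1 in all 15 libraries. At Knockdown, 4, 0 and 0 starts lay in HMDs in Cl.3, Cl.6 and Cl.9, and 0 in R1 and R2. PMDs took their place, without a UMR, at 1, 6 and 6 starts in the clones and at 5 and 4 in R1 and R2. The CDX1 start was called a UMR inside a PMD in R1 and R2 at Knockdown, where its window still had mC of 49.6% and 41.2%, and LGALS4 was so called in R2. At Recovery, HMDs held 5, 5 and 1 starts in the clones and 6 in each bulk population. The study reported that HMDs mostly turned into PMDs across the genome with both knockdowns. The share over all genes is not given here, so these counts say nothing particular about the 10 genes.

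By length, KRT20 was 100% HMD at Baseline in all 5 populations and 100%, 95.7% and 0% at Knockdown in Cl.3, Cl.6 and Cl.9, the largest share kept in Cl.6. CDX1 was 100% HMD in the clones at Baseline and 0% in each of them at Knockdown. None of the 10 genes had any HMD at Knockdown in Cl.9, R1 or R2, and the share over all genes is not given here. These classes were called per library by thresholds on smoothed levels, so a change of class is not a measure of how much mC changed.

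Other genes of the gut epithelium were compared at their start windows from lists set by function. Absorptive cell genes were methylated like the members, with a median Baseline mC of 88.8% over 20 genes, of which 14 reached 80%. SI, the brush border sucrase-isomaltase, was highest at 96.6% ± 2.13 (SD, n = 5) and CA2, a carbonic anhydrase, lowest at 12.1% ± 2.43 (SD, n = 5). All 20 fell with either shRNA, beside 97% and 98.8% of all start windows, from CA1 with a loss of 33.5 ± 8.99 points (SD, n = 3) in the clones to CA2 with 6.41 ± 0.52 points (SD, n = 3). Secretory cell genes had a median of 85.6% over 12 genes, and all 12 fell with either shRNA. NEUROD1, an enteroendocrine transcription factor, stood at 95.4% and ATOH1, which specifies secretory cells, at 36.0%, while CLCA1 lost most, 29.5 ± 16.5 points (SD, n = 3). The 8 other mucin genes had a median of 80.6% and all fell with either shRNA, with MUC4 highest at Baseline (88.2%), MUC1 lowest (46.6%) and MUC5AC losing most in the clones (30.8 ± 14.4 points; SD, n = 3). These 3 counts are close to the share over all genes.

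Intestinal transcription factors and stem cell genes were closer to the median of all genes. The 13 transcription factors had a median Baseline mC of 57.5%, and 11 fell with shUHRF1 and 12 with shDNMT1, where 97% and 98.8% of all start windows did. NR5A2 was highest at 95.5%, and ISX lost most in the clones, 33.9 ± 14.2 points (SD, n = 3). GATA6 was lowest at 10.2% and did not pass, with changes of -1.20 ± 1.5 points (SD, n = 3) in the clones and 0.23 ± 0.48 points (SD, n = 2) in the bulk populations. The 13 stem cell genes had a median of 47.4%, and all 13 fell with either shRNA. ASCL2, the transcription factor of crypt stem cells, stood at 95.8% and SOX9 at 7.26%, and PROM1 lost most in the clones, 20.8 ± 7.39 points (SD, n = 3).

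Epithelial adhesion and keratin genes had the lowest median, 37.3% over 20 genes, of which 19 fell with shUHRF1 and 20 with shDNMT1, again beside 97% and 98.8% of all start windows. GPA33, a membrane antigen of intestinal epithelium, was highest at 92.6% and lost most, 23 ± 11.2 points (SD, n = 3), and the tight junction gene CLDN7 was lowest at 5.57%. Markers of other cell types were also methylated, with a median of 84.9% over 20 genes, of which 12 reached 80%; LYZ was highest at 96.3%, SNAI1 lowest at 21.6%, and ALB lost most in the clones, 29.8 ± 14.4 points (SD, n = 3). All 20 fell with either shRNA. The median loss in the clones was 17.8 points over the 10 genes, 24.9 and 25.1 points over the absorptive and secretory lists, 19.9 points over the markers of other cell types and 13.9 points over all start windows.

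The genes most like each member over the 15 libraries were found by the root mean square difference of start window mC, among 19381 protein-coding genes. CDX1 was nearest to CTRC and ANGPTL8 (1.96 and 1.98 points), CDX2 to PRRT3 and DEPTOR (1.73 and 1.77) and LGR5 to MFSD11 and RPN1 (1.81 and 1.82). KRT20 was nearest to FBXO47 and HOXD4 (1.75 and 1.78 points), VIL1 to NLRC3 and GJB1 (1.30 and 1.38) and CDH17 to KRT36 and QPCT (1.15 and 1.47). LGALS4 was nearest to ITGAL and CFAP100 (1.10 and 1.11 points), EPCAM to DCK and TIPIN (1.96 and 2.01), CDH1 to MARF1 and USP13 (2.07 and 2.07) and MUC2 to ENSG00000288669 and ADAM8 (2.21 and 2.38). No member was among the nearest genes of another.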

How the data were processed

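Whole genome bisulfite sequencing reads were aligned by the authors with Meth10X v1.2. The authors deposited 3 tables of counts per CpG (methylated reads and covering reads). They also deposited 15 domain lists, in which MethylSeekR v1.0 gave the partially methylated domains (PMDs), low methylated regions and unmethylated regions (UMRs) and bedtools v2.25.0 gave the highly methylated domains (HMDs) as a complement. Every position was tested against hg38 and was a cytosine of a CpG.

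Starts and gene spans came from GENCODE release 44. Summed methylated and unmethylated reads per gene were tested with edgeR 4.0.16 (quasi-likelihood; genes with 5 or more CpGs and, per library, 50 or more reads; all 15 libraries; adjusted p under 0.05), with the population as a block, since the labels give each population at all 3 stages. Deviations of the same population correlated across 18496 gene bodies with r of 0.37 to 0.55 in the clones and -0.03 to 0.04 in the bulk populations. limma 3.58.1, other windows, minimums and left-out populations were tried. On simulated data for 19382 start windows, shUHRF1 Knockdown, edgeR found 58% of genes changed by a log2 odds of -1 and 100% at -2, with 4.82% of calls false. In that simulation few genes changed and populations did not differ, unlike in the data, so these shares do not describe the real fit. The population of each library came from its title. The text names all 10 genes, the extremes of each list, the 2 most alike genes and single CpGs by reads and change. The members and lists were chosen with earlier results of these data known. Sequences were read from hg38. The start sites of 3 genes are not shown as sequence.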

Additional observations from a re-analysis of the deposited data

Results flagged for a closer look

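The changes of the shUHRF1 clones and of the shDNMT1 bulk populations differed by the interaction term of the edgeR fit at the following genes. Values are differences of log2 odds ratios, shUHRF1 minus shDNMT1, so a positive value at Knockdown means a smaller fall in the clones and a negative value at Recovery a larger deficit in the clones.

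At start windows, the Knockdown changes differed by 0.60 at CDX2, 1.08 at LGR5, 1.5 at KRT20, 1.26 at VIL1, 1.26 at CDH17, 1.34 at LGALS4 and 0.95 at CDH1. The Recovery changes differed by -2.72 at CDX1, -0.64 at CDX2, -1.09 at VIL1, -1.53 at CDH17, -1.16 at MUC2 and -1.49 at LGALS4. CDX1 had the largest of these differences at Recovery, which did not pass without R1 (-2.21; adjusted p = 0.11 by edgeR) or without R2 (-3.36; adjusted p = 0.053), and its difference at Knockdown did not pass. Without R2 none of the start window differences passed, and without R1 those of LGR5, LGALS4 and CDH1 at Knockdown did. The Knockdown difference of CDX2 was 0.38 without Cl.3 (adjusted p = 0.18 by edgeR) and 0.37 without R2 (0.41).

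In gene bodies, the Knockdown changes differed by 0.86 at CDX1, 1.00 at LGR5, 1.62 at KRT20, 1.14 at VIL1, 1.16 at CDH17, 0.95 at LGALS4, 1.46 at EPCAM and 1.09 at CDH1. The Recovery changes differed by -1.35 at CDX1, -2.27 at CDX2, -1.13 at LGR5, -1.08 at VIL1, -1.22 at CDH17, -1.26 at MUC2, -1.56 at LGALS4, -0.84 at EPCAM and -0.94 at CDH1. That of EPCAM was -0.49 without Cl.9 and -0.86 without Cl.6, and passed in neither. Such differences were common, called in 81.6% and 88.9% of all gene bodies and in 48.2% and 33.9% of all start windows, none of those at Knockdown and only that of CDX2 at Recovery passed in gene bodies without R1 or without R2, none of the differences listed passed without the population block, and the shRNA cannot be told apart from the kind of population.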

How the results depend on the processing

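No call of a single gene turned its direction under the alternatives run: of 1801 values for 126 called results, 1607 stayed past the threshold and 194 did not. Without the replicate block, 0 of 10 genes were called for the rise from Knockdown to Recovery with shUHRF1 and for both differences between shRNAs, in start windows (0%, 0% and 0.00516% of all genes) and in gene bodies (0% each); 5 calls of single start windows with shUHRF1 were also lost, CDX2 and LGR5 at Knockdown and CDX2, EPCAM and CDH1 at Recovery, where the share of all genes moved from 75% to 29.9%. The canonical start alone gave 4 genes for that rise and 1 for the Knockdown difference, against 7 and 7 (13.3% and 10.9% of all genes, against 50.1% and 48.2%), and windows of 500 bp gave 2 for the Recovery difference, against 6 (18.4% against 33.9%). With the spread of each gene alone, chosen after seeing the data, these counts in start windows were 2, 4 and 0 (23.6%, 24.3% and 1.39% of all genes). Each shRNA fitted alone gave 3 gene bodies for shDNMT1 Recovery against Baseline, where the main value was 0.

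Leaving out 1 population in turn gave 4 to 7 start windows for the rise with shUHRF1 (19.4% to 51.5% of all genes), lowest without Cl.6. Differences between the shRNAs were lost mostly without R1 or R2, where a lone bulk population stood for shDNMT1. Without Cl.9, those lost included the start window Recovery differences of CDX2, VIL1 and MUC2. Without Cl.6, they included the gene body Knockdown differences of CDX1, LGR5 and LGALS4. The median Knockdown change with shDNMT1 moved from -38.7 to -34.0 points in start windows of 500 bp and from -39.8 to -37.8 points over whole gene spans, and was -39.8 to -40.5 points in bodies with 1 bulk population left out. Its median Recovery change in start windows, -1.20 points, was 0.0066 with the canonical start alone, and that in bodies, -1.09, was -0.72 to -1.11 with 1 bulk population left out. With 35 bp in place of 20 bp, the density gap with shDNMT1 was -19.3 points against -21.0 in start windows and -5.67 against -8.03 in bodies. Here the gap is the change at low density minus that at high density, so a negative value is a larger loss at low density. The clones and bulk populations are few, a lone remaining bulk population was assumed to vary like the others, and the start of CDX1 rests on few reads per CpG.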
